A study of Homo sapiens with 38 samples.

Results

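The 40 genes described here copy DNA or bring cells to the point of doing so. They were chosen by name, 1 probe set per gene with the highest mean signal, and make up 40 of the 11456 genes measured above the signal filter. By role, 10 load the replicative helicase onto origins in G1 (ORC1, ORC6, CDC6, CDT1 and MCM2 to MCM7) and 6 switch that helicase on (MCM10, CDC45 and the GINS subunits GINS1 to GINS4). A further 5 form the sliding clamp and its loader (PCNA, RFC2 to RFC5) and 5 are polymerase or primase subunits (POLA1, POLA2, PRIM1, POLE2, POLD1). Single-strand binding and the trimming and sealing of lagging-strand fragments account for 4 (RPA2, RPA3, FEN1, LIG1), and the supply of deoxynucleotides for another 4 (RRM1, RRM2, TYMS, TK1). The last 6 act on entry into S phase: the cyclins CCNE1 and CCNE2, the transcription factors E2F1 and E2F2, the phosphatase CDC25A, and UHRF1, which carries DNA methylation through replication.

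In a cycling cell the MCM ring is loaded in G1 by the origin recognition complex with CDC6 and CDT1, and is activated at the start of S phase by CDC45 and GINS. Cyclin E with its kinase CDK2 drives that step and is itself activated by CDC25A. E2F factors, released from RB proteins as G1 ends, raise transcription of most genes of this kind, which is why their RNA levels are commonly read as a mark of proliferating cells.

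The series holds 38 arrays of 2 human tumour lines and of rho0 derivatives of each, which lack mitochondrial DNA. The treated groups were as follows. HT-1080 fibrosarcoma cells received 2-deoxyglucose (2DG, a glucose analogue that blocks glycolysis) on 3 arrays, glucose starvation (GS) on 2 and tunicamycin (TM, which blocks N-glycosylation in the endoplasmic reticulum) on 1. Further HT-1080 arrays, 1 each, had 2DG with metformin (Met, 10 mM), buformin (Bu, 300 µM), phenformin (Phen, 100 µM), rotenone (Rot, 100 nM), antimycin A (AA, 10 ng/ml) or versipelostatin (VST, 3 µM). Another array each had GS with VST, GS with Rot, GS with Rot including floating cells, GS with AA including floating cells, TM with Rot and TM with AA. HT-1080 rho0 cells had 1 array each of 2DG, GS (including floating cells) and TM. HT-29 colorectal adenocarcinoma cells had 3 arrays of GS and 1 of GS with VST, and HT-29 rho0 cells had 1 of GS. Untreated controls numbered 6 for HT-1080, 2 for its rho0 derivative, 3 for HT-29 and 1 for the HT-29 rho0 cells. Treatment lasted 18 h, but 14 h for the third HT-29 GS array and for HT-29 rho0 GS, and no dose of 2DG or TM is stated in the sources used here. Each compound was given together with a stress on every array that had it, and the labels do not say whether the arrays of a group came from separate cultures or whether the GS with Rot arrays with and without floating cells came from the same one. Rot and AA inhibit complexes I and III of the respiratory chain, the biguanides Met, Bu and Phen inhibit complex I more weakly, and VST blocks the induction of endoplasmic reticulum chaperones in cells short of glucose.

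Promoter windows (250 bases before to 50 after the start, RefSeq, GRCh38.p14) were at hand for 34 of the 40 genes, 44 windows in all. Because the genes moved together in several groups, the windows were searched for the E2F words TTTCGCGC, TTTGGCGC, TTTCCCGC and TTTGCCGC on both strands, overlapping matches counted, and for CCAAT, the core of the NF-Y site. An E2F word lay in 21 of the 44 windows (47.7%), against 1164 of 35116 windows of all RefSeq promoters (3.31%). By gene these were 20 of 34 (58.8%) against 1090 of 27305 (3.99%). The genes were chosen by name, and E2F factors raise most genes of this kind. The excess goes with that choice and is not a result about their changes here. CCAAT lay in 59.1% of the windows of the replication genes and in 34.6% of all windows. The 6 sequences that follow run 5′ to 3′ from 200 bases before to 30 after the start, with E2F words of either strand in capitals. E2F1 (chr20:33686356-33686585, minus strand), MCM3 (chr6:52284713-52284942, minus strand) and POLE2 (chr14:49688185-49688414, minus strand) are examples with a word close to the start. They were picked because their signals were also low under glucose starvation, and whether a word went with a fall was not tested. The fall of MCM3 did not pass the adjusted threshold in starved HT-1080 cells, nor did that of E2F1 in starved HT-29 cells. MCM10 had the lowest estimate in starved HT-1080 cells and holds none of the words, while MCM2 did not pass there and holds 2. MCM2 (chr3:127598211-127598440, plus strand) has 2 overlapping matches. CDC6 (chr17:40287679-40287908, plus strand) holds a word too and is shown because its signal went the other way in HT-29. RRM2 (chr2:10122539-10122768, plus strand) is shown because it was low under every stress alone, and holds none of the words and 3 copies of CCAAT. E2F1 and CDC6 also hold 3 copies of CCAAT in these stretches, MCM3 holds 2, and MCM2 and POLE2 hold 0.
E2F1: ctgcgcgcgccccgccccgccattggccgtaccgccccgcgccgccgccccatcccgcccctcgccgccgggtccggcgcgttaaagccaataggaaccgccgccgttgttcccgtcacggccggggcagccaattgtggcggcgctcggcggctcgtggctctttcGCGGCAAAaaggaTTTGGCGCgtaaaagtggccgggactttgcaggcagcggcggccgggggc
MCM3: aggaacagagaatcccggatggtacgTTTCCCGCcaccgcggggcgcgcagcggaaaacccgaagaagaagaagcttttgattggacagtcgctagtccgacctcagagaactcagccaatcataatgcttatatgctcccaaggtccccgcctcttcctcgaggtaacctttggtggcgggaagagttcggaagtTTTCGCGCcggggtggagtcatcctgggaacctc
POLE2: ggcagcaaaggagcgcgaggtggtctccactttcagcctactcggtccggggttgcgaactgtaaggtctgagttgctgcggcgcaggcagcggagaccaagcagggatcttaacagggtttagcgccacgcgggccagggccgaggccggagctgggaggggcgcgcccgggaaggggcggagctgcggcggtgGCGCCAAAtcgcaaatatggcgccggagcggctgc
MCM2: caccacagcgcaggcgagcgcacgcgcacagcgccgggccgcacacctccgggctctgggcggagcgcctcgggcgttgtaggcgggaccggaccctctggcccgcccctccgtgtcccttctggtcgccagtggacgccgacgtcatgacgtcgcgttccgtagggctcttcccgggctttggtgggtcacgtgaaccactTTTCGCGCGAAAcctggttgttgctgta
CDC6: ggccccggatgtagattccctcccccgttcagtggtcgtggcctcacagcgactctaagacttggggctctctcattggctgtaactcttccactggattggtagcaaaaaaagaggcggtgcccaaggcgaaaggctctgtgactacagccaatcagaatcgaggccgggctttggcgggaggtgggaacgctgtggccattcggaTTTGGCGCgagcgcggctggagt
RRM2: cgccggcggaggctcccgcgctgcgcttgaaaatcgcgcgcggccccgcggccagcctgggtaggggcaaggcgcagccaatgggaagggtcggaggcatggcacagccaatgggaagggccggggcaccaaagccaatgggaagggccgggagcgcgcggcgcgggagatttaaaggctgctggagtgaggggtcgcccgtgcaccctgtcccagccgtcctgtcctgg
A match to these letters is a description of the window and not a bound site.

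Signals below are deposited intensities scaled to the same array-wide level, and changes are log2 differences of (scaled signal + 5.69), a scale that understates changes of dim genes. The array-wide level before scaling (2% trimmed mean) was 89.5 to 102 where 2DG or GS was combined with a compound (11 arrays) and 90.2 to 96.3 in rho0 cells under 2DG or GS (3 arrays). It was 118 to 119 on the 2 arrays of TM with a compound, 113 on rho0 TM, 122 to 131 on the 9 parental arrays of a stress alone, 109.5 to 117.5 on the rho0 controls and 124 to 136 on the parental controls. The 3' to 5' signal ratio of ACTB, a sign of RNA integrity, was 1.04 to 1.76 over all arrays and above 1.5 on the 3 arrays of GS with Rot or AA (1.51, 1.67 and 1.76). Of 10 mesenchymal markers 9 had a higher mean in HT-1080, 6 of them without overlap. Of 10 colon epithelial markers 8 had a higher mean in HT-29, 7 of them without overlap. The exceptions were COL1A2 (mean 13.1 in HT-1080 and 16.1 in HT-29) and CDX1 and CDX2, near background in both lines. All 10 probe sets of mtDNA-encoded transcripts were lower in rho0 cells than in the parental cells of either line, without overlap. Their signals in HT-1080 rho0 cells, where the template is missing, reached 16.0, so that a gene's signal under this is not told from background and its log2 change not a measured size. That holds for CDC25A with 2DG and Bu, TM and Rot, TM and AA, rho0 2DG, rho0 GS and HT-29 GS with VST, for E2F1 with TM and AA, and for E2F2 with HT-29 GS and VST. In such bulk RNA, fewer cells in S phase and less RNA per cell cannot be told apart.

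**Figure D1:**
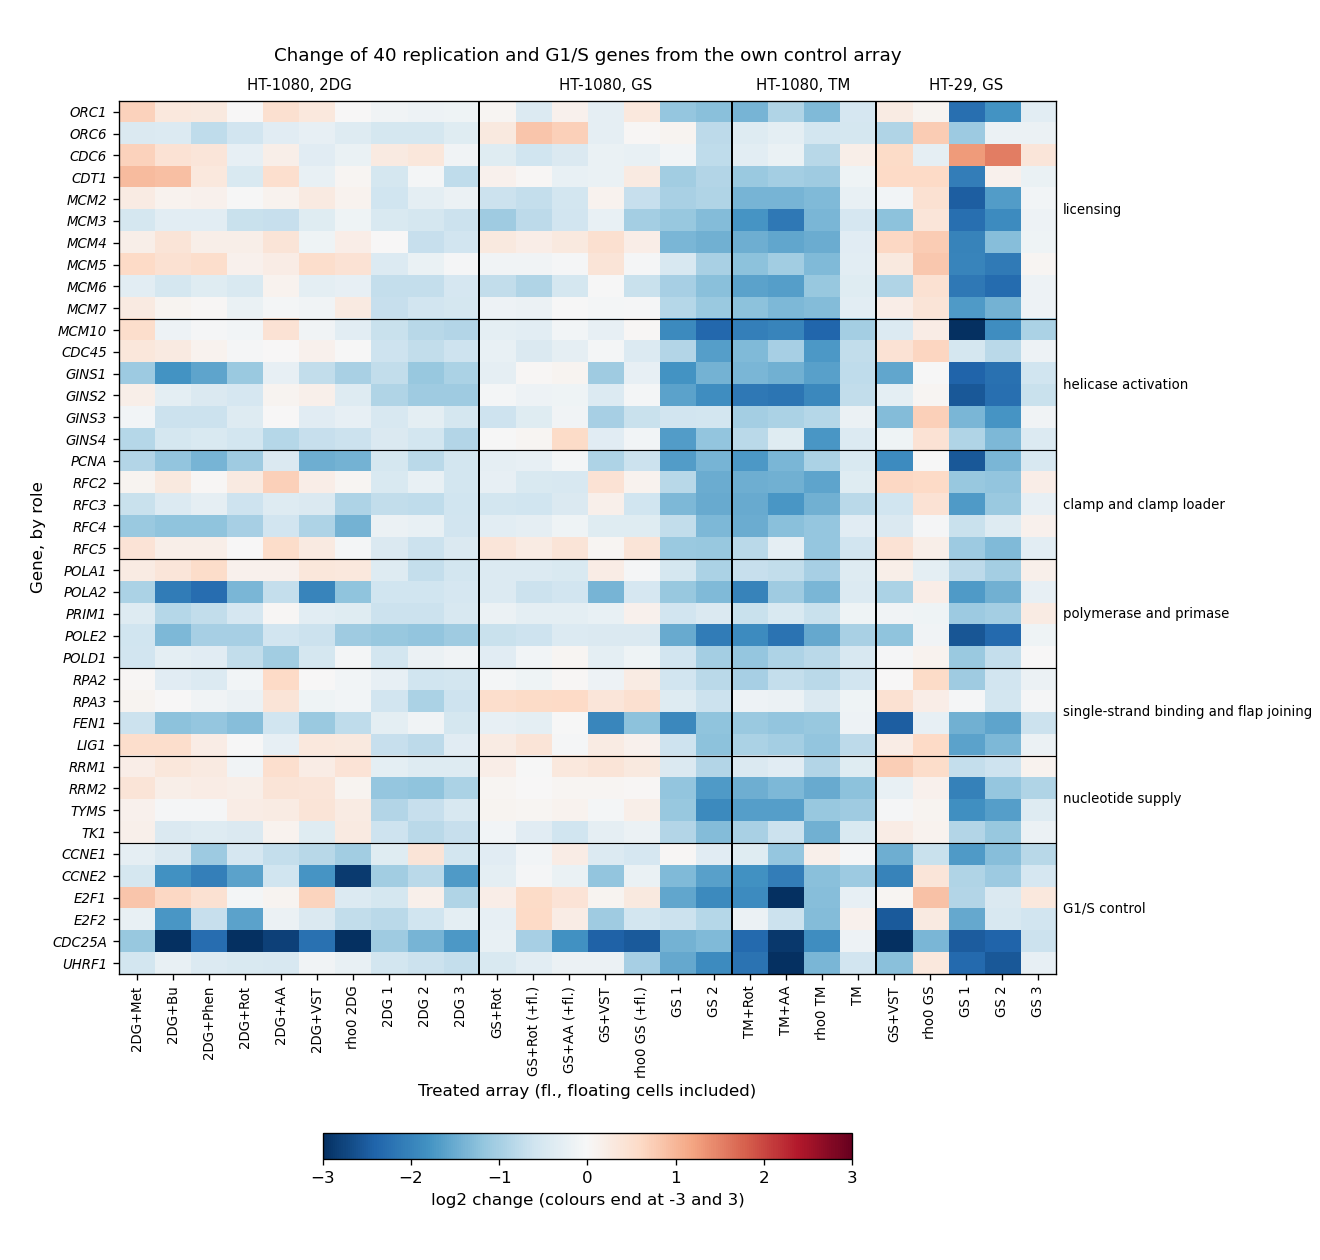
Log2 change of each of the 40 genes (rows, by role) from its own control array on each of the 26 treated arrays (columns, by line and stress; fl., floating cells included). Blue is lower and red higher than the control, with colours ending at -3 and 3. HT-1080 GS, HT-29 GS 1 and 2, TM with Rot or AA and rho0 TM are blue in 38 or more of the 40 rows. So are HT-1080 2DG 1, 2DG 3 and TM alone, and 2DG 2 is blue in 37. CDC25A is below its control on all 26 arrays, least with TM alone (-0.15).

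Glucose starvation of HT-1080 cells was compared with 2 own controls. All 40 genes had lower estimates under GS than in the controls, with a median log2 change of -1.14 against -0.02 over all 11456 genes. The fall passed an adjusted p of 0.05 for 23 of the 40 and 0 rose, against 5.10% falling and 4.36% rising over all genes. By role, 5 of 5 clamp and clamp loader genes, 4 of 4 nucleotide supply genes, 5 of 6 helicase activation genes and 3 of 10 licensing genes fell, with 2 of 5 polymerase genes, 1 of 4 single-strand genes and 3 of 6 genes of G1/S control.

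MCM10, which recruits polymerase alpha and helps start the helicase, had the lowest estimate. Its signal was 265 and 155 under GS, against 775, 823 and 1014 (lowest, median and highest) in the 6 controls, a log2 change of -2.13 (SE 0.35, adjusted p = 0.00555). Both GS arrays lay below every control. E2F1 had 38.5 and 32.7 under GS, against 76.7, 114 and 139 in the controls (-1.73, SE 0.31, adjusted p = 0.00864). POLE2, a subunit of the leading-strand polymerase epsilon, had 79.7 and 57.6 under GS, against 202, 226 and 263 in the controls (-1.79, SE 0.44, adjusted p = 0.0284). GINS2 had 225 and 199 under GS, against 550.4, 602 and 741 in the controls (-1.73, SE 0.33, adjusted p = 0.0113). In these genes too, the GS arrays and the controls did not overlap.

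PCNA, the sliding clamp that holds polymerases on DNA, had 779 and 945 under GS, against 2296, 2431 and 2671 in the controls, and fell by 1.54 on the log2 scale (SE 0.33, adjusted p = 0.0179). TYMS, which makes thymidylate, had 1667 and 947 under GS, against 2970, 3553 and 3918 in the controls (-1.53, SE 0.28, adjusted p = 0.00966). For RRM2, the regulatory subunit of ribonucleotide reductase, the signals were 2021 and 1059 under GS, against 3368, 4163 and 5329 in the controls (-1.43, SE 0.22, adjusted p = 0.00382). All 3 were below every control on both GS arrays. CCNE2 had 127 and 64.0 under GS, against 212, 318 and 354 in the controls (-1.48, SE 0.25, adjusted p = 0.0065), again without overlap.

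Of the MCM ring, MCM7 fell, with 842 and 713 under GS, against 1384, 1546 and 1886 in the controls (-0.99, SE 0.27, adjusted p = 0.0417), and so did MCM4 (-1.41, SE 0.33, adjusted p = 0.0232). MCM2 had 1130 and 1419 under GS, against 2109, 2199 and 2639 in the controls, and did not pass (-0.93, SE 0.38, adjusted p = 0.148), although the arrays did not overlap. CDC6 had 415 and 231 under GS, against 396, 425 and 487 in the controls, so that the groups overlapped (-0.42, SE 0.26, adjusted p = 0.344). CCNE1 gave the change nearest 0 (-0.15, SE 0.28, adjusted p = 0.793). The count of 23 rests on both GS arrays: it was 0 without GS 1 or its control and 1 without GS 2 or its control. With the spread taken from HT-1080 arrays alone 36 fell, beside 13.1% of all genes under that fit.

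**Figure D2:**
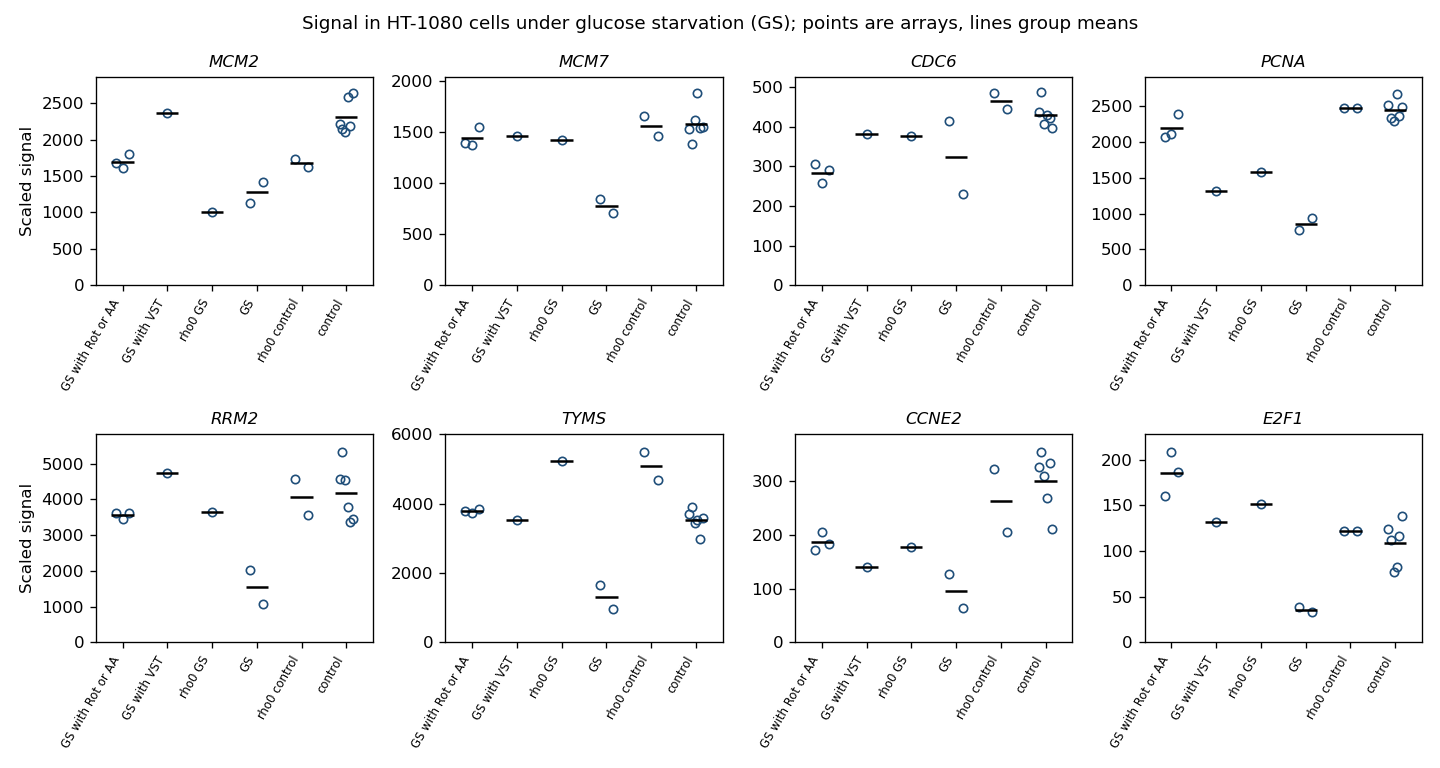
Scaled signal of 8 genes on each HT-1080 array of GS with Rot or AA, GS with VST, rho0 GS, GS, rho0 controls and controls; points are arrays and lines are group means. The GS points lie below every control for all of these genes but CDC6, and the points with Rot or AA lie above both GS points for all but CDC6.

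With 2DG the falls were fewer. Of the 40, 7 fell and 0 rose, against 3.37% falling and 4.90% rising over all genes, and 39 of 40 estimates were below 0 (median -0.57, against 0.03 over all genes). Those that fell were CCNE2, RRM2, CDC25A, GINS2, CDC45, TK1 and RPA3, of which 5 also fell under GS (71.4% of the 7 with 2DG, 21.7% of the 23 with GS). RRM2 had 2376, 1638 and 1729 with 2DG, against 3368, 4163 and 5329 (lowest, median and highest) in the controls, and fell by 1.11 (SE 0.18, adjusted p = 0.00459). CCNE2 had 170.3, 151 and 99.4 with 2DG, against 212, 318 and 354 in the controls (-1.18, SE 0.20, adjusted p = 0.00682). The 2DG arrays lay below every control for both. CDC25A had 111, 91.6 and 42.7 with 2DG, against 86.6, 166 and 249.8 in the controls (-1.39, SE 0.32, adjusted p = 0.0234), and here the groups overlapped. GINS2 fell by 1.01 (SE 0.27, adjusted p = 0.0433).

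TYMS had 2131, 2164 and 2141 with 2DG, against 2970, 3553 and 3918 in the controls, without overlap, but did not pass (-0.68, SE 0.23, adjusted p = 0.0883). PCNA (-0.63, SE 0.27, adjusted p = 0.172), MCM7 (-0.59, SE 0.22, adjusted p = 0.119), MCM2 (-0.36, SE 0.31, adjusted p = 0.516), E2F1 (-0.43, SE 0.26, adjusted p = 0.327) and CDC6 (0.17, SE 0.21, adjusted p = 0.666) did not pass either. The count of 7 moved widely with single arrays. It was 0, 1 and 2 without 2DG arrays 1, 2 and 3 or their controls, 11 without HT-29 GS 1 or its control and 25 without HT-29 GS 3 or its control. Without HT-29 GS 3 the median change was -0.566. All arrays share 1 estimate of the spread, which includes that among the HT-29 GS arrays, taken at 14 h and 18 h. From HT-1080 arrays alone 31 fell, beside 11.5% of all genes.

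With TM, a single array, 0 of the 40 genes passed in limma and none of all genes did (0% rose and 0% fell). The median fitted change of the 40 was -0.35, against -0.003 over all genes. Taken directly from this array and its own control, the median was -0.41, RRM2 gave -1.235 and CDC6 0.175. RRM2 had 1460 with TM, against 3444 in its own control (-1.10, SE 0.28, adjusted p = 0.342). MCM2 (-0.24), MCM7 (-0.24), CDC6 (0.35), PCNA (-0.53), TYMS (-0.87), CCNE2 (-1.005) and E2F1 (-0.15) did not pass (lowest adjusted p = 0.592, CCNE2). GS and 2DG were also set against each other, each relative to its own controls. The GS estimate was the lower for 35 of 40 genes (median -0.58, against -0.05 over all genes), but 0 differences passed in limma. Over all genes 0.00873% were called lower and 0.00873% higher. FEN1, the flap endonuclease, gave a change of -1.56 (SE 0.22, adjusted p = 0.00351) under GS and of -0.31 (SE 0.18, adjusted p = 0.322) under 2DG, a difference of -1.25 (SE 0.29, adjusted p = 0.465). MCM2 (-0.57), MCM7 (-0.40), CDC6 (-0.59), PCNA (-0.91), RRM2 (-0.33), TYMS (-0.85), CCNE2 (-0.31) and E2F1 (-1.30) did not pass (lowest adjusted p = 0.537, E2F1). From HT-1080 arrays alone, 4 genes fell with TM (0.515% of all genes) and 6 were lower under GS than under 2DG (0.402% of all genes), and without the control-set block 1 differed between GS and 2DG.

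**Figure D3:**
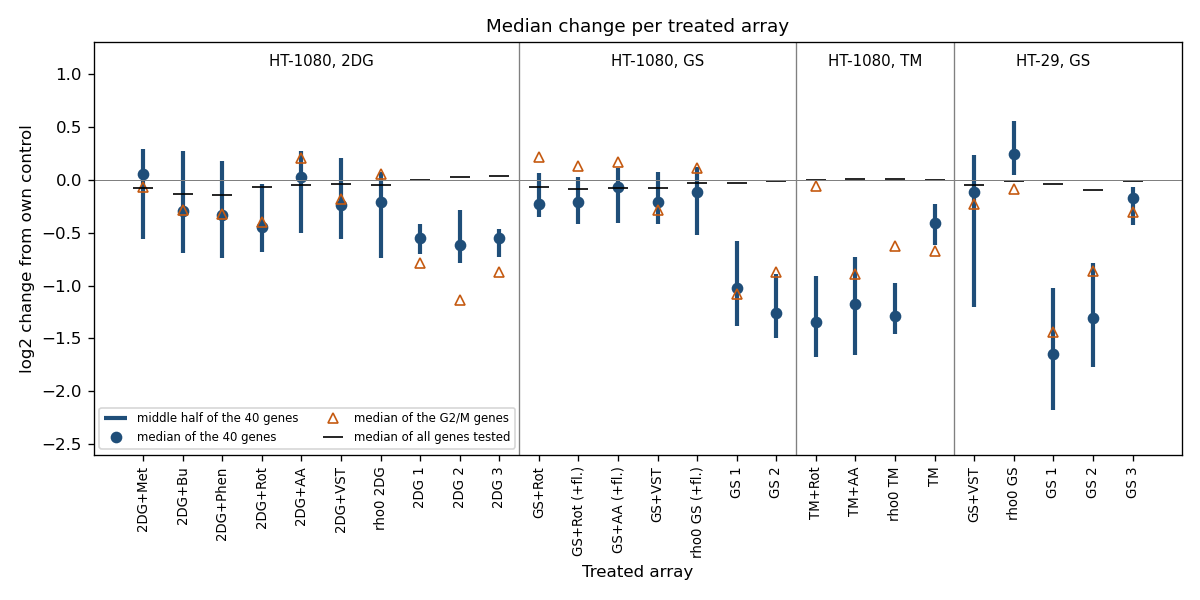
Median log2 change of the 40 genes from the own control on each treated array (points; bars span the quartiles of the genes), with the median of 25 G2/M genes (triangles) and of all genes tested (dashes). HT-1080 GS lies at -1.02 and -1.26 and HT-1080 2DG at -0.55, -0.62 and -0.55, while the 11 arrays that combine either stress with a compound lie between -0.45 and 0.05.

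In starved HT-29 cells 31 of the 40 genes fell and 1 rose, against 15.5% falling and 11.6% rising over all genes (median -1.06, against -0.04 over all genes). Licensing genes fell in 7 of 10, helicase activation genes in 5 of 6, clamp and loader genes in 4 of 5, polymerase genes in 4 of 5, single-strand genes in 3 of 4, nucleotide supply genes in 3 of 4 and genes of G1/S control in 5 of 6. MCM10 had 76.4, 113 and 324 in GS arrays 1, 2 and 3, against 672, 426 and 633 in controls 1, 2 and 3, and fell by 1.96 (SE 0.28, adjusted p = 0.00126). GINS1, another subunit of the GINS complex, fell by 1.74 (SE 0.27, adjusted p = 0.00173), and GINS2 had 140.2, 176 and 458 under GS, against 840.3, 864 and 729 in the controls (-1.82, SE 0.27, adjusted p = 0.0015). For CDC25A the signals were 47.5, 36.9 and 138 under GS, against 295, 221 and 220.4 in the controls (-1.85, SE 0.32, adjusted p = 0.00288). None of MCM10, GINS1, GINS2 and CDC25A overlapped between GS and controls.

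The third array, taken at 14 h, stood nearer its control than the other two. Its median change over the 40 genes was -0.17, against -1.65 and -1.30 on GS arrays 1 and 2 at 18 h, and 0 of its 40 changes were under -1, against 30 and 29. MCM2 had 478, 784 and 2660 in GS arrays 1, 2 and 3, against 2680, 2527 and 2813 in the controls, the third GS array near them (-1.41, SE 0.31, adjusted p = 0.00763). MCM7 had 673, 871 and 2013 under GS, against 2205, 2329 and 2243 in the controls (-1.09, SE 0.22, adjusted p = 0.00533). TYMS had 1321, 1455 and 3701 under GS, against 4770, 4555 and 4831 in the controls (-1.29, SE 0.23, adjusted p = 0.00324), and so did not overlap. PCNA had 422, 1153 and 1599 under GS, against 2478, 3003 and 2227 in the controls (-1.46, SE 0.27, adjusted p = 0.00361). RRM2 had 1047, 2312 and 1759 under GS, against 4262, 5205 and 3284 in the controls (-1.36, SE 0.18, adjusted p = 0.000771), and was low on all 3 arrays. CCNE2 had 69.4, 158 and 104 under GS, against 135, 346 and 149.6 in the controls (-0.84, SE 0.20, adjusted p = 0.012), each GS array below its own control. E2F1 had 55.7, 106 and 134 under GS, against 108, 145 and 107 in the controls, and did not pass (-0.34, SE 0.26, adjusted p = 0.357). Time and culture cannot be told apart, since 1 HT-29 GS array was taken at 14 h. The number called was 14 without GS 1 or its control and 19 without GS 2 or its control.

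CDC6, the loader that licenses origins, was the gene that rose in HT-29. Its signal was 1889, 2073 and 1148 under GS, against 779, 713 and 893 in the controls, a log2 change of 1.05 (SE 0.21, adjusted p = 0.00518), and higher on all 3 arrays. A second CDC6 probe set gave 0.73 in HT-29 and -0.75 in HT-1080. Set against HT-1080, the HT-29 change of CDC6 differed by 1.47 (SE 0.33, adjusted p = 0.0847), that of E2F1 by 1.39 (SE 0.40, adjusted p = 0.172) and that of CCNE1 by -1.12 (SE 0.36, adjusted p = 0.215). MCM2 (-0.48), MCM7 (-0.10), PCNA (0.08), RRM2 (0.07), TYMS (0.24) and CCNE2 (0.65) did not pass (lowest adjusted p = 0.416, CCNE2). Of the 40 differences between the lines 0 passed in limma (median 0.11, against -0.03 over all genes). Over all genes 0.402% were called higher in HT-29 and 0.166% lower. Without the 14 h array or its control 7 passed, 1 higher and 6 lower in HT-29, and without the control-set block 1 passed. The shares of all genes under those fits are not given here, so these counts are not read as a result about the 40 genes. Of the genes that fell, 19 did so in both lines (61.3% of 31 in HT-29, 82.6% of 23 in HT-1080). CDC45, RFC4, RRM1 and E2F1 passed in HT-1080 and not in HT-29, which is no test of a difference between the lines.

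**Figure D4:**
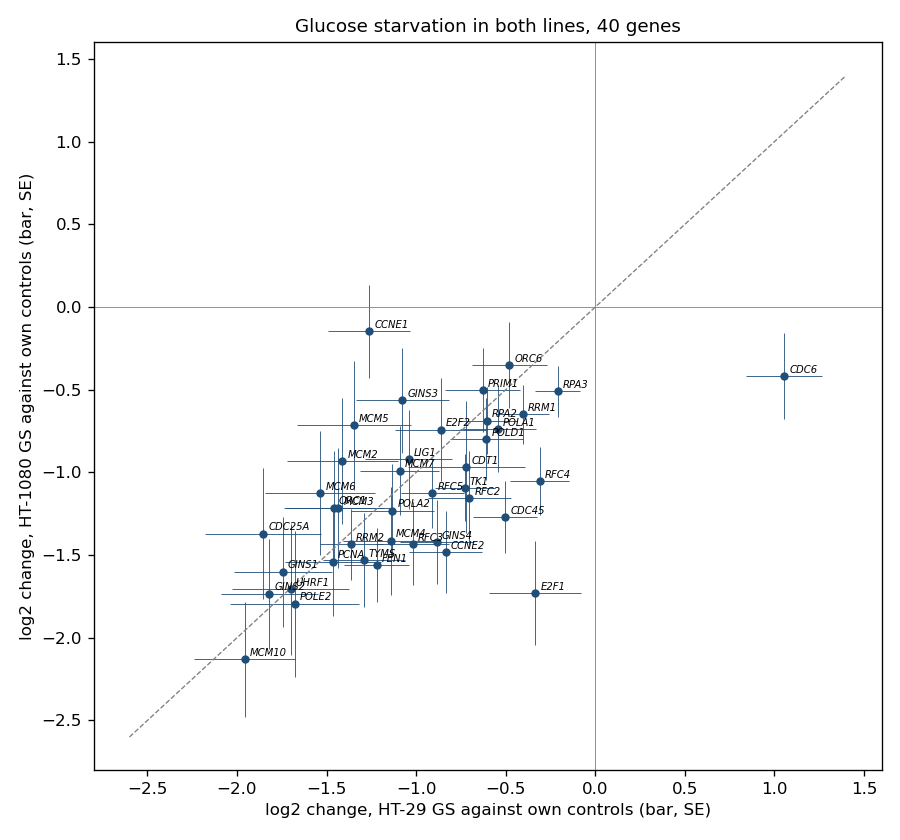
Log2 change under GS of the 40 genes in HT-29 (horizontal axis) and HT-1080 (vertical axis), each against its own controls; bars are standard errors and the dashed line marks equal change. CDC6 lies at 1.05 and -0.42, E2F1 at -0.34 and -1.73 and CCNE1 at -1.26 and -0.15, and all genes but CDC6 are below 0 in both lines.

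Respiratory inhibitors were added to starvation in HT-1080. With Rot or AA, all 40 fitted estimates were higher than with GS alone (median 0.97, against -0.04 over all genes), and 27 rose and 0 fell, against 13.7% rising and 16.5% falling over all genes. All 5 clamp and loader genes, all 4 single-strand genes, all 4 nucleotide supply genes and 5 of 6 helicase activation genes rose, with 4 of 10 licensing genes, 2 of 5 polymerase genes and 3 of 6 genes of G1/S control. E2F1 had 160.2 with Rot, 208 with Rot including floating cells and 187 with AA including floating cells, against 38.5 and 32.7 with GS alone (2.22, SE 0.37, adjusted p = 0.00017). MCM10 had 664, 649 and 767 on those arrays, against 265 and 155 with GS alone (2.01, SE 0.32, adjusted p = 0.000117). Every array with an inhibitor lay above both GS arrays for these 2 genes. TYMS had 3778, 3723 and 3852 with an inhibitor, against 1667 and 947 with GS alone (1.80, SE 0.23, adjusted p = 1.8e-05). RRM2 had 3607, 3457 and 3614 with an inhibitor, against 2021 and 1059 with GS alone (1.61, SE 0.18, adjusted p = 5.27e-06), with no overlap in either gene.

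PCNA (1.28, SE 0.31, adjusted p = 0.00423), CCNE2 (1.38, SE 0.39, adjusted p = 0.0105), MCM7 (0.94, SE 0.23, adjusted p = 0.00422) and MCM4 (1.69, SE 0.27, adjusted p = 0.000121) rose as well. MCM2 had 1684, 1606 and 1802 with an inhibitor, against 1130 and 1419 with GS alone, and did not pass (0.28, SE 0.31, adjusted p = 0.547). CDC6 had 305, 259 and 289.9 with an inhibitor, within the 415 and 231 with GS alone, and did not pass either (0.12, SE 0.25, adjusted p = 0.775). Its mean changes from the own controls, without the fitted block, differed by -0.055, the reverse sign, so that the sign of CDC6 depends on the fit, while the other 39 genes were higher either way. Nor did CDC25A pass, whose signals of 73.7, 40.7 and 20.4 with an inhibitor overlapped 63.3 and 31.0 with GS alone (0.34, SE 0.63, adjusted p = 0.732). All 3 arrays with an inhibitor had an ACTB ratio above 1.5 and an array-wide level of 95.8 to 98.5, against 128 and 126 with GS alone; their part in the result was not tested. At the deposited scaling 19 rose and 0 fell, with a median of 0.62 beside -0.39 over all genes. The count of 27 was 17 without the 2 arrays that include floating cells and 3 without GS 2.

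With 2DG, adding a compound went with higher signals of some genes and lower signals of others. Over Met, Bu, Phen, Rot and AA together, 13 of 40 rose and 2 fell relative to 2DG alone, against 13.4% rising and 22.7% falling over all genes (median 0.42, against -0.12 over all genes). RRM2 had 5958 with Met, 5161 with Bu, 5335 with Phen, 4286 with Rot and 4919 with AA, against 2376, 1638 and 1729 with 2DG alone (1.42, SE 0.17, adjusted p = 6.68e-06). MCM10 had 1124, 699, 758, 762 and 1091 with these compounds in the same order, against 621, 451 and 450.2 with 2DG alone (0.96, SE 0.29, adjusted p = 0.0139). TYMS had 3762, 3334, 3373, 4098 and 4165 with the compounds, against 2131, 2164 and 2141 with 2DG alone (0.85, SE 0.21, adjusted p = 0.00374). Each array with a compound exceeded each 2DG array for RRM2, MCM10 and TYMS. RPA3, the smallest subunit of the single-strand binding protein RPA, rose by 0.86 (SE 0.15, adjusted p = 0.000224), and POLA1, the catalytic subunit of polymerase alpha, by 0.82 (SE 0.21, adjusted p = 0.00441).

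FEN1 and RFC4, a clamp loader subunit, fell. FEN1 had 1898, 1270, 1337, 1207 and 1967 with Met, Bu, Phen, Rot and AA, against 2258, 2743 and 1854 with 2DG alone (-0.72, SE 0.22, adjusted p = 0.0153). RFC4 had 576, 536, 542, 732 and 984 with the compounds, against 1282, 1247 and 953 with 2DG alone (-0.62, SE 0.18, adjusted p = 0.0104). Both overlapped 2DG alone, RFC4 through the AA array and FEN1 through the Met and AA arrays. CDC25A had 61.6, 4.96, 24.7, 22.0 and 31.2 with the compounds, against 111, 91.6 and 42.7 with 2DG alone (-1.41, SE 0.57, adjusted p = 0.0584). Its signal with Bu lay in the range of background, so the size of this change is not measured. POLA2, the regulatory subunit of polymerase alpha, had 225, 98.2, 85.6, 146 and 234 with the compounds, against 233, 253 and 276 with 2DG alone (-0.70, SE 0.37, adjusted p = 0.143). Neither passed, and both overlapped 2DG alone, CDC25A through the Met array and POLA2 through the AA array.

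PCNA (-0.20, SE 0.28, adjusted p = 0.62), CCNE2 (-0.17, SE 0.35, adjusted p = 0.741), CDC6 (-0.09, SE 0.23, adjusted p = 0.795), MCM2 (0.42, SE 0.28, adjusted p = 0.262), MCM7 (0.54, SE 0.21, adjusted p = 0.0508) and E2F1 (0.45, SE 0.34, adjusted p = 0.313) did not pass. Array-wide levels were 89.5 to 102 with these compounds, against 123 to 128 with 2DG alone, and their part was not tested. At the deposited scaling the split turned to 2 higher and 6 lower, with a median of 0.03 beside -0.48 over all genes, so directions here are relative to the array as a whole. The count of 15 was 9 without 2DG with AA and 2 without 2DG 2, and with the biguanides alone 4 rose and 1 fell.

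The 3 biguanides share 1 control array and were given at different doses, 10 mM Met, 300 µM Bu and 100 µM Phen, so their values stand side by side without a comparison. Against that control, 1, 7 and 6 of the 40 genes fell with 2DG and Met, Bu and Phen, against 13.9%, 13.1% and 14.8% of all genes, and 0 of the 40 rose with any of them (7.03%, 6.50% and 7.45% of all genes). CCNE2 had 213, 83.7 and 70.3 with 2DG and Met, Bu and Phen, against 309 in the control. GINS1 had 401, 248 and 288 with them, against 866, and PCNA had 1237, 999 and 870, against 2296. All of these signals were under the control. With 2DG and Rot 6 genes fell (6.64% of all genes) and with 2DG and AA 2 fell (11.6%), while 0 of the 40 rose with either (3.43% and 5.24% of all genes). RFC4, FEN1, POLA2, CCNE2 and CDC25A fell with Bu, with Phen and with Rot. RFC4 was the gene that fell with Met, and CDC25A and POLD1 fell with AA. The counts with Bu and Phen are near the shares over all genes, those with Met and AA below them and that with Rot above. These names are a listing and not a result about the 40 genes.

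With TM the inhibitors went with lower signals. Relative to TM alone, 38 of the 40 estimates were lower (median -0.82, against 0.00 over all genes), 3 fell and 0 rose, against 0.602% falling and 0.244% rising over all genes. E2F1 had 33.0 and 10.9 with TM and Rot or AA, against 117 with TM alone (-2.27, SE 0.44, adjusted p = 0.0226). Its signal with AA lay in the range of background, so the size of this fall is not measured. UHRF1 had 245 and 132.5 with TM and Rot or AA, against 776 with TM alone (-2.07, SE 0.42, adjusted p = 0.0251). RFC4 had 597 and 702 with TM and Rot or AA, against 1334 with TM alone (-1.04, SE 0.23, adjusted p = 0.0411). These 3 genes were low with either inhibitor. PCNA (-1.10, SE 0.37, adjusted p = 0.165), MCM2 (-1.18, SE 0.36, adjusted p = 0.127), MCM7 (-0.97, SE 0.27, adjusted p = 0.0953), CCNE2 (-0.87, SE 0.46, adjusted p = 0.415), TYMS (-0.60, SE 0.27, adjusted p = 0.335), CDC6 (-0.43, SE 0.30, adjusted p = 0.568) and RRM2 (-0.17, SE 0.22, adjusted p = 0.791) did not pass.

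Against the untreated control that both share, 9 genes fell with TM and Rot (1.24% of all genes) and 16 fell with TM and AA (5.71%), and all 40 changes were below 0 with either. MCM3 had 246 and 189.7 with TM and Rot or AA and 596 with TM alone, against 852 in the control, lower with an inhibitor than with TM alone. The array-wide level was 118 to 119 with an inhibitor, against 125 with TM alone. The count of 3 relative to TM alone was 0 without TM with AA, 7 without HT-29 GS 1 or its control and 12 without HT-29 GS 3 or its control, and 14 fell from HT-1080 arrays alone (1.51% of all genes). TM alone is 1 array, assumed to vary like the replicated groups.

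The inhibitor effect under GS and under 2DG was set against that under TM, a comparison added after the data had been seen. Under GS it was higher than under TM for 40 of 40 genes (median 1.78, against -0.02 over all genes), and 30 differences passed, all higher, against 7.67% higher and 7.81% lower over all genes. The difference was 4.49 (SE 0.57, adjusted p = 0.000166) for E2F1, 3.55 (SE 0.55, adjusted p = 0.000774) for UHRF1, 3.11 (SE 0.48, adjusted p = 0.000719) for GINS2 and 3.01 (SE 0.49, adjusted p = 0.00112) for MCM10. E2F1 with TM and AA lay in the range of background, so the size of its difference, here and under 2DG, is not measured. MCM2 (1.45, SE 0.48, adjusted p = 0.0434), MCM7 (1.92, SE 0.36, adjusted p = 0.002), PCNA (2.37, SE 0.48, adjusted p = 0.00345), RRM2 (1.79, SE 0.28, adjusted p = 0.000789), TYMS (2.40, SE 0.36, adjusted p = 0.000553) and CCNE2 (2.25, SE 0.60, adjusted p = 0.0162) were higher as well. CDC6 (0.55, SE 0.39, adjusted p = 0.38) did not pass. Under 2DG it was higher than under TM for 39 of 40 (median 0.99, against -0.12 over all genes), with 14 passing, all higher, against 2.38% higher and 3.76% lower over all genes. There the difference was 2.73 (SE 0.55, adjusted p = 0.0121) for E2F1, 2.26 (SE 0.53, adjusted p = 0.0199) for UHRF1, 2.25 (SE 0.46, adjusted p = 0.0124) for GINS2, 1.96 (SE 0.48, adjusted p = 0.0234) for MCM10 and 1.59 (SE 0.27, adjusted p = 0.00492) for RRM2. MCM2 (1.59, SE 0.46, adjusted p = 0.0434), MCM7 (1.51, SE 0.34, adjusted p = 0.0171) and TYMS (1.45, SE 0.34, adjusted p = 0.0212) were higher as well. CDC6 (0.34), PCNA (0.90) and CCNE2 (0.70) did not pass (lowest adjusted p = 0.261, PCNA). HT-1080 control 6 serves TM, TM with Rot or AA, GS with Rot or AA and GS 2. The GS count was 9 without GS 2. The 2DG count was 9 without 2DG 1 or its control, 9 without TM with Rot, 9 without HT-1080 control 3, 3 without TM with AA and 2 without 2DG 2, and it was 9 at the deposited scaling.

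**Figure D5:**
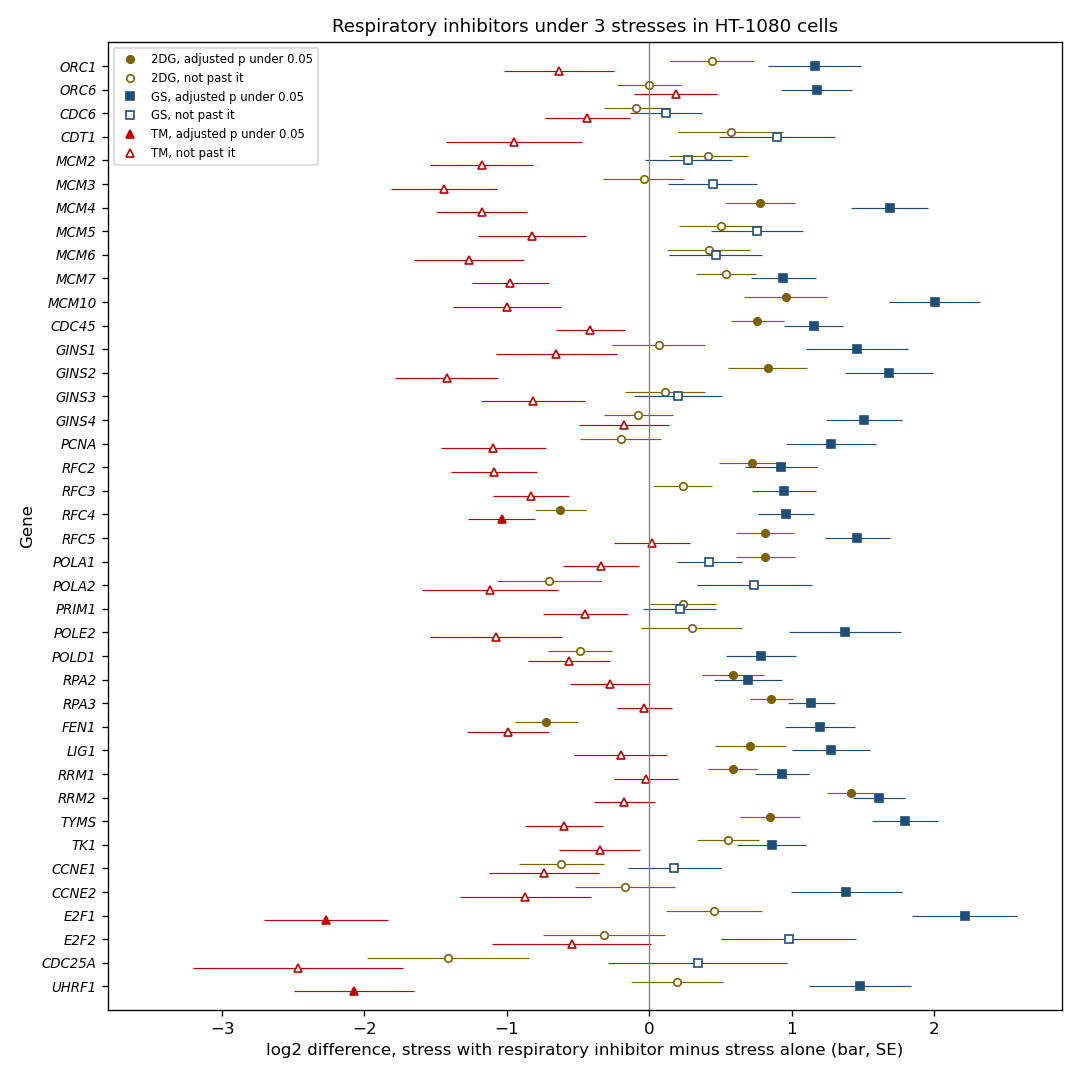
Log2 difference between stress with a respiratory inhibitor and stress alone in HT-1080 cells for each gene under 2DG, GS and TM; bars are standard errors and filled symbols passed an adjusted p of 0.05. GS symbols lie right of 0 for all 40 genes, TM symbols left of 0 for 38, and 2DG symbols on both sides.

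VST was given with each glucose stress on 1 array, with array-wide levels of 89.6 to 99.0 whose part was not tested. Relative to GS alone in HT-1080, 12 genes rose and 0 fell with VST, against 4.73% rising and 9.47% falling over all genes (median 0.89, against -0.05 over all genes). MCM4 rose by 1.87 (SE 0.43, adjusted p = 0.0176) and RFC3 by 1.54 (SE 0.33, adjusted p = 0.0135). E2F1 had 132 with VST, against 38.5 and 32.7 with GS alone (1.73, SE 0.41, adjusted p = 0.0197). MCM10 had 851 with VST, against 265 and 155 with GS alone (1.77, SE 0.46, adjusted p = 0.0268). RRM2 had 4745 with VST, against 2021 and 1059 with GS alone (1.36, SE 0.28, adjusted p = 0.0121), and TYMS had 3541, against 1667 and 947 (1.28, SE 0.37, adjusted p = 0.0424). In each of these the VST array lay above both GS arrays. PCNA (0.69, SE 0.44, adjusted p = 0.321), FEN1 (-0.22, SE 0.29, adjusted p = 0.668) and CDC25A (-1.03, SE 0.52, adjusted p = 0.213) did not pass. MCM2 (1.04), MCM7 (0.86), CDC6 (0.05) and CCNE2 (0.22) did not pass (lowest adjusted p = 0.134, MCM7). The count was 0 without GS 1, 2 without GS 2 or either control, 25 without HT-29 GS 3 or its control and 4 at the deposited scaling. From HT-1080 arrays alone 27 rose and 1 fell, beside 11.5% and 18.1% of all genes.

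In HT-29, 18 genes rose and 4 fell with GS and VST relative to GS alone, against 11.5% and 18.1% over all genes (median 0.84, against -0.04 over all genes). MCM4 rose by 2.20 (SE 0.42, adjusted p = 0.00288), ORC1, the largest subunit of the origin recognition complex, by 2.12 (SE 0.44, adjusted p = 0.00442), MCM10 by 2.08 (SE 0.45, adjusted p = 0.00521) and CDT1 by 1.99 (SE 0.51, adjusted p = 0.0132). MCM2 had 2526 with VST, against 478, 784 and 2660 with GS alone (1.86, SE 0.49, adjusted p = 0.0146), near the 14 h GS array. CDC25A had 3.37 with VST, against 47.5, 36.9 and 138 with GS alone (-2.88, SE 0.51, adjusted p = 0.00189). CCNE2 had 29.4 with VST, against 69.4, 158 and 104 with GS alone (-1.13, SE 0.32, adjusted p = 0.0205). For both, the VST array was below every GS array. FEN1 fell as well (-1.14, SE 0.29, adjusted p = 0.0118). E2F2 had 8.75 with VST, against 22.7, 36.2 and 49.6 with GS alone (adjusted p = 0.0287). CDC25A and E2F2 with VST lay in the range of background, so that the sizes of their falls are not measured. CDC6 had 1171 with VST, against 1889, 2073 and 1148 with GS alone (-0.58, SE 0.33, adjusted p = 0.22). MCM7 (1.59, SE 0.35, adjusted p = 0.00595), RRM2 (1.46, SE 0.28, adjusted p = 0.00272) and TYMS (1.54, SE 0.36, adjusted p = 0.00859) were higher as well. PCNA (0.12) and E2F1 (0.67) did not pass (lowest adjusted p = 0.241, E2F1). The count of 22 was 6 without HT-29 GS 1 and 34 without HT-29 GS 3 or its control, and 10 rose and 2 fell from HT-29 arrays alone (3.47% and 10.6% of all genes).

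With 2DG and VST, RRM2 rose relative to 2DG alone, with 5886 against 2376, 1638 and 1729 (1.48, SE 0.35, adjusted p = 0.0299), and no other of the 40 passed (2.22% of all genes rose and 5.26% fell; median 0.35, against -0.08 over all genes). MCM2 (0.63), MCM7 (0.48), CDC6 (-0.51), PCNA (-0.84), TYMS (1.07), CCNE2 (-0.60) and E2F1 (1.09) did not pass (lowest adjusted p = 0.177, TYMS). The count was 0 without any 1 of the 2DG arrays or their controls and 5 without HT-29 GS 3 or its control, and from HT-1080 arrays alone 11 rose and 3 fell (8.57% and 13.9% of all genes). Against its own control, CDC25A had 25.9 with 2DG and VST and 143 in the control (-2.24, SE 0.56, adjusted p = 0.0282), and fell together with POLA2, FEN1 and CCNE2 (7.12% of all genes). The same 4 genes fell with GS and VST against its own control (8.61%). Both counts are near the shares over all genes, and 2DG with VST has the same control array as the biguanides.

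Cells without mitochondrial DNA were compared for their response to each stress. The HT-1080 rho0 GS array includes floating cells and neither HT-1080 GS array does, so that cell collection and the lack of mitochondrial DNA cannot be told apart there. Under GS, the change in HT-1080 rho0 cells was higher than in HT-1080 for 37 of 40 genes (median 0.91, against -0.02 over all genes). In limma 0 differences passed, and 0.480% of all genes were called higher and 1.03% lower. TYMS had 5239 in rho0 GS, against 4673 in its control. In HT-1080, TYMS had 1667 and 947 under GS, against 3689 and 3587 in the paired controls, and the changes differed by 1.69 (SE 0.49, adjusted p = 0.0952). The differences of RRM2 (1.47, SE 0.37, adjusted p = 0.0713), E2F1 (2.03, SE 0.54, adjusted p = 0.0781) and MCM10 (2.16, SE 0.60, adjusted p = 0.0849) did not pass. Nor did the differences of MCM2 (0.25), MCM7 (0.95), CDC6 (0.19), PCNA (0.90) and CCNE2 (1.29) (lowest adjusted p = 0.133, CCNE2). Without HT-29 GS 3 or its control 15 passed, and without HT-29 GS 1 or 2 or their controls 2 passed. From HT-1080 arrays alone 24 were higher and 0 lower (6.42% and 8.14% of all genes), and without the control-set block 1 passed. Shares of all genes under the other fits are not given here.

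HT-29 rho0 cells had a higher change under GS than HT-29 for 39 of 40 genes (median 1.32, against 0.05 over all genes). Again 0 passed in limma, and 0.0698% of all genes were called higher and 0.0175% lower. The rho0 array was taken at 14 h and 2 of the 3 HT-29 GS arrays at 18 h. MCM5 had 1104 in rho0 GS, against 623 in its control. In HT-29, MCM5 had 220.1, 195 and 882 under GS, against 883, 866 and 849.5 in the controls, and the changes differed by 2.17 (SE 0.64, adjusted p = 0.128). At 14 h the median change of the 40 genes was 0.25 on the rho0 array and -0.17 on the HT-29 array. The gene with the lower change was CDC6, with 498 in rho0 GS, against 606 in its control, a change of -0.28. In HT-29 the change of CDC6 was 1.05, and the changes differed by -1.33 (SE 0.42, adjusted p = 0.148). MCM2 (1.87), MCM7 (1.48), PCNA (1.46), RRM2 (1.497), TYMS (1.37), CCNE2 (1.1996) and E2F1 (1.203) did not pass (lowest adjusted p = 0.094, RRM2). Without HT-29 GS 3, the array of matched time, or its control, 32 passed, 31 higher and 1 lower. The share of all genes under that fit is not given here.

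With 2DG, 2 genes, CDC25A and CCNE2, were lower in rho0 cells than in HT-1080 relative to their controls, and 0 higher (5.25% of all genes were lower and 1.77% higher; median 0.40, against -0.10 over all genes). CDC25A had 3.43 in rho0 2DG, against 198 in its control, and the changes differed by -3.09 (SE 0.65, adjusted p = 0.0159). Its signal in rho0 2DG lay in the range of background, so the size of this difference is not measured. CCNE2 had 39.3 in rho0 2DG, against 322 in its control, and the changes differed by -1.69 (SE 0.41, adjusted p = 0.029). MCM2 (0.47), MCM7 (0.86), CDC6 (-0.37), PCNA (-0.79), RRM2 (1.18), TYMS (0.94) and E2F1 (0.02) did not pass (lowest adjusted p = 0.0658, RRM2). The count was 0 without 2DG 1 or its control, 1 without 2DG 2 or its control, 4 without HT-29 GS 1 or its control and 8 without HT-29 GS 3 or its control, and from HT-1080 arrays alone 8 were higher and 4 lower (6.85% and 13% of all genes). With TM the rho0 change was lower for 39 of 40 genes (median -0.85, against 0.00 over all genes). In limma 0 passed, and 0% of all genes were called lower. MCM10 had 138 in rho0 TM, against 739 in its control, and 397 in TM, against 813 in its control (-1.45, SE 0.67, adjusted p = 1). MCM2 (-1.09), MCM7 (-1.05), CDC6 (-1.17), PCNA (-0.41), RRM2 (-0.41), TYMS (-0.28), CCNE2 (-0.25) and E2F1 (-1.13) did not pass (lowest adjusted p = 1, MCM2). Array-wide levels were 90.2 to 91.3 on the HT-1080 rho0 arrays with 2DG and GS and 113 on rho0 TM, and their part was not tested.

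Unstressed cells were compared last. HT-1080 rho0 controls had 1 higher and 5 lower genes than HT-1080 controls (median -0.02, against 0.02 over all genes), against 6.15% and 6.95% of all genes. TYMS was higher in rho0, with 5491 and 4673, against 2970, 3553 and 3918 (lowest, median and highest) in HT-1080 (0.53, SE 0.10, adjusted p = 0.00409). GINS4 (-0.88, SE 0.22, adjusted p = 0.0198), ORC1 (-0.72, SE 0.16, adjusted p = 0.00846), GINS1 (-0.61, SE 0.16, adjusted p = 0.023) and POLA1 (-0.49, SE 0.15, adjusted p = 0.0432) were lower in rho0, and so was MCM2. MCM2 had 1736 and 1620 in rho0, against 2109, 2199 and 2639 in HT-1080 (-0.46, SE 0.11, adjusted p = 0.0132), and neither TYMS nor MCM2 overlapped. MCM7 (-0.02), CDC6 (0.11), PCNA (0.02), RRM2 (-0.03), CCNE2 (-0.20) and E2F1 (0.19) did not pass (lowest adjusted p = 0.632, CDC6). The count was 0 without rho0 control 1 and 1 without rho0 control 2. HT-29 controls had 15 higher and 7 lower genes than HT-1080 controls (median 0.21, against -0.06 over all genes), against 27.4% and 32.4% of all genes. CDC45 had 818, 746 and 703 in HT-29, against 208, 224 and 258 in HT-1080 (1.72, SE 0.12, adjusted p = 1.44e-08), the largest difference of the 40 and without overlap. CCNE1 was higher in HT-29 by 1.37 (SE 0.16, adjusted p = 3.56e-06), POLE2 by 1.10 (SE 0.13, adjusted p = 5.2e-06), RFC5 by 0.98 (SE 0.10, adjusted p = 1.48e-06) and CDC6 by 0.88 (SE 0.11, adjusted p = 8.35e-06), and MCM10 (-0.61, SE 0.15, adjusted p = 0.00245), RFC3 (-0.60, SE 0.10, adjusted p = 7.64e-05), RFC4 (-0.53, SE 0.12, adjusted p = 0.00122) and PRIM1 (-0.45, SE 0.11, adjusted p = 0.00324) were lower. MCM7 (0.51, SE 0.10, adjusted p = 0.000352) and TYMS (0.43, SE 0.09, adjusted p = 0.000763) were higher as well. MCM2 (0.21), PCNA (0.06), RRM2 (0.02), CCNE2 (-0.61) and E2F1 (0.16) did not pass (lowest adjusted p = 0.0567, CCNE2).

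Genes around the 40 were counted from lists that were likewise chosen with earlier results of these data known. Of 43 other replication genes measured, 6, 17 and 23 fell and 0, 0 and 0 rose with 2DG, GS and HT-29 GS (medians -0.40, -0.66 and -0.61), where 3.37%, 5.10% and 15.5% of all genes fell. ASF1B, a histone chaperone, gave -1.13, -1.83 and -1.64 (adjusted p = 0.0192, 0.00641 and 0.00162). With the inhibitors, 12 rose and 5 fell relative to 2DG alone, and 23 rose and 3 fell relative to GS alone. Relative to TM alone 0 rose and 0 fell in limma. Over all genes, 13.4% rose and 22.7% fell relative to 2DG alone, and 13.7% and 16.5% relative to GS alone. POLE, the catalytic subunit of polymerase epsilon, rose by 2.30 relative to GS alone (SE 0.25, adjusted p = 2.78e-06), and GMNN, which restrains CDT1, by 1.94 (SE 0.23, adjusted p = 7.23e-06).

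Of 36 other G1/S regulators measured, 2, 1 and 4 rose and 7, 12 and 14 fell with 2DG, GS and HT-29 GS, where 4.90%, 4.36% and 11.6% of all genes rose and 3.37%, 5.10% and 15.5% fell. E2F8, a repressive E2F, fell in all 3 comparisons (-1.60, -2.89 and -2.57; adjusted p = 0.0302, 0.00628 and 0.00162), as did SKP2, which targets CDK inhibitors for degradation (-1.47, -2.29 and -2.53; adjusted p = 0.0417, 0.0161 and 0.00169). CDKN1A, the CDK inhibitor p21, rose by 3.48 in HT-29 GS (SE 0.39, adjusted p = 0.000428), and its estimate in HT-1080 GS was -0.23 (SE 0.48, adjusted p = 0.814). With inhibitors relative to 2DG alone, MYC rose by 3.18 (SE 0.28, adjusted p = 5.85e-07) and CDKN1B, the CDK inhibitor p27, fell by 2.14 (SE 0.29, adjusted p = 2.21e-05). They were among 6 regulators that rose and 8 that fell of 36, shares near those over all genes (13.4% and 22.7%). Of 25 G2/M genes, 20, 19 and 22 fell and 0, 0 and 0 rose with 2DG, GS and HT-29 GS (3.37%, 5.10% and 15.5% of all genes fell). With inhibitors 17 G2/M genes rose and 0 fell relative to 2DG alone (13.4% of all genes rose), and 19 rose and 0 fell relative to GS alone (13.7%). Relative to TM alone 0 rose and 0 fell in limma, with a median of 0.07 for the G2/M genes and -0.82 for the 40. The G2/M median pools arrays that differed from TM alone in opposite directions: against the untreated control it was -0.06 with TM and Rot and -0.89 with TM and AA, against -0.67 with TM alone. For the 40 genes it was -1.35 and -1.17 with Rot and AA, against -0.41 with TM alone.

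Of the 40 genes, 20 had further probe sets that passed the signal filter, 26 in all. Probe sets that did not pass it were not compared. Their changes had the sign of the chosen probe set for 25 of 26 with 2DG, 24 with GS and 24 with HT-29 GS, and for 23 of the inhibitor differences under 2DG and under GS. The largest gaps were 2.04 for GINS2 in HT-29 GS, from a probe set with a mean signal of 19.7, and 2.46 for RFC5 with inhibitors and GS, where 1 of 2 other probe sets went the other way (-1.01, against 1.46). The other E2F1 probe set (mean signal 79.9) gave smaller values: -0.74 under GS, against -1.73, and 1.00 with inhibitors and GS, against 2.125. For CDC25A with inhibitors and 2DG, the other probe sets gave 0.17 and -0.545, against -1.255.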

How the data were processed

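The deposited values were linear signal intensities from Affymetrix arrays, 1 column per array, made by the authors with MAS5, per the submitters' processing notes; other steps are not given in the sources used here. Of 54675 probe sets, 232 had missing values, none of them a gene described here, and 41097 carried 1 gene symbol, 1801 several and 11777 none; only those with 1 symbol were named. Arrays were brought to 1 level by their 2% trimmed mean (114), an offset of 5% of it (5.69) was added and log2 taken. Probe sets reaching 45.5 (40%) on 2 arrays were kept, 1 per gene with the highest mean, which left 11456 genes. Treated groups were fitted with limma 3.58.1 (R 4.3.3), with the control array the labels name for each treated array as a fixed block and an intensity trend. The fit by group had 5 residual degrees of freedom over 38 arrays, the fit that pooled the inhibitors under each stress had 12, and the fit of the 12 controls had 8. A group with 1 array takes its spread from the groups with several. p-values were adjusted by Benjamini-Hochberg over all genes, with a threshold of 0.05. They measure the spread between these arrays, which may be technical and includes the difference between 14 h and 18 h among the HT-29 GS arrays. The number of arrays limits the precision.

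The 40 genes and the other lists were chosen with earlier results of these data known. In each comparison of groups or of stresses, a log2 value is given for MCM2, MCM7, CDC6, PCNA, RRM2, TYMS, CCNE2 and E2F1 and for the 4 largest passing changes in each direction, with others as examples; single arrays against their own control are given by counts and examples; from other lists, up to 4 passing genes. The comparisons of inhibitor effects between stresses were added after the data had been seen. The procedure was tested on simulated data. Alternatives were the offset, the filter, quantile normalization, the deposited scaling, the mean of probe sets, no trend, no block, same line only, and leaving out each array. The control array named by the labels pairs the samples; replicate numbers alone were not used.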

Additional observations from a re-analysis of the deposited data

Results flagged for a closer look

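In HT-1080 control 6, which is paired with GS 2, TM and the arrays of GS or TM with Rot or AA, GINS4 had a signal of 122.5, against 182.5 to 228 in the other 5 controls. Its gap to the nearest control was 0.638 of the range of the 6, above Dixon's critical value for 6 samples. This was 1 of 40 genes tested in these controls, where chance alone flags about 1 in 20.

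The response to 2DG differed between HT-1080 rho0 and HT-1080 cells for 2 of the 40 genes, CDC25A and CCNE2, both lower in rho0, a share near the 5.25% of all genes that were lower there. The effect of a respiratory inhibitor differed between 2DG and TM for 14 of the 40 genes and between GS and TM for 30, all higher under 2DG or GS. Over all genes 2.38% were higher and 3.76% lower between 2DG and TM, and 7.67% higher and 7.81% lower between GS and TM. Each of these differences was tested within 1 model, and the counts change when single arrays are left out, as given above.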

How the results depend on the processing

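The counts below are of the 40 genes past the adjusted threshold. They stand here without the share of all genes under the same fit, so they are not read as a result about the 40 genes. The same holds for counts above with arrays left out or another fit where no share is given. With no intensity trend the count was 3 for 2DG, 11 for GS, 0 for 2DG with VST minus 2DG, 2 for GS with VST minus GS, 1 for rho0 2DG minus 2DG, 1 for TM with inhibitor minus TM and 7 for the inhibitor effect under 2DG minus TM. With arrays of the same line only it was 31 for 2DG, 36 for GS, 4 for TM, 6 for GS minus 2DG, 14 for 2DG with VST, 28 for GS with VST, 12 for HT-29 GS with VST, 12 for rho0 2DG, 24 for rho0 GS and 14 for TM with inhibitor, each against its stress alone. With no replicate block, that is without the pairing by control array, it was 1 for GS minus 2DG, 1 for HT-29 GS minus HT-1080 GS, 3 for 2DG with VST, 1 for rho0 2DG and 1 for rho0 GS, and the other counts stayed within 1.5 times. At the deposited scaling it was 4 for GS with VST, 8 for 2DG with inhibitor and 9 for the inhibitor effect under 2DG minus TM. Quantile normalization gave 0 for 2DG with VST and 1 for rho0 2DG, and the mean of probe sets gave 0 for rho0 2DG. The biguanides alone gave 5 for 2DG with inhibitor, and GS with inhibitor gave 17 without the arrays that include floating cells. The cause was not tested. A value without the arrays of high ACTB ratio, an alternative chosen after seeing the data, could not be had for GS with inhibitor, since all 3 arrays exceed 1.5.

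Leaving out each array in turn gave 0 to 25 for 2DG, 0 to 34 for GS, 0 to 0 for TM, 14 to 36 for HT-29 GS, 0 to 0 for GS minus 2DG and 0 to 7 for HT-29 GS minus HT-1080 GS. It gave 0 to 5 for 2DG with VST, 0 to 25 for GS with VST, 6 to 34 for HT-29 GS with VST, 0 to 8 for rho0 2DG, 0 to 15 for rho0 GS, 0 to 0 for rho0 TM and 0 to 32 for HT-29 rho0 GS. For 2DG, GS and TM with inhibitor it gave 2 to 21, 3 to 29 and 0 to 12, for the inhibitor effects 2 to 18 (2DG minus TM) and 9 to 32 (GS minus TM), and for the rho0 and HT-29 controls 0 to 7 and 18 to 25. For single named genes no direction that passed was turned under any alternative run: 1972 values under other settings kept their side of the threshold, 82 lost it and 34 gained it, and with 1 array left out these were 1242, 173 and 28. CDC25A, E2F1 and E2F2 are dim genes in several groups, where signal near background limits the fold.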
